A study of Mus musculus with 12 samples.

Results

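The regions described here are narrow ATAC-seq peaks that 3 libraries listed with exactly the same start and end. A peak was taken when EXT replicate 1, EXT replicate 2 and RC replicate 3 all held it with identical bounds, when it was 170 bp wide or less, and when it lay on chromosomes 1 to 19. This gave 5235 regions, which were 16.7% of the 31339 autosomal peaks of that width in EXT replicate 1, 13.4% of 38967 in EXT replicate 2 and 13.0% of 40201 in RC replicate 3. They made up 6.57%, 4.31% and 5.43% of all autosomal peaks of the same lists. Bounds and widths in these 3 lists chose the regions, so their pileups and folds there are given as a description. The only test is 1 comparison of EXT with RC over all 5 libraries, for the few regions that every list held.

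ATAC-seq maps open chromatin with a transposase that cuts accessible DNA and joins sequencing adapters to it, so that the start of each read marks a cut. At a promoter or enhancer cuts usually spread over a nucleosome-free stretch, and the peak takes the width of that stretch. Reads with the same start can come from separate cuts at the same base or from copies of 1 molecule made during amplification, and a peak list does not record which. A transposase cut is also staggered, so reads leaving the same insertion in opposite directions start a few bases apart.

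EXT libraries came from mice given extinction training, 60 tones with no shock in a new context B, and RC libraries from retention controls that spent the same time in that context with 0 tones. All mice were adult male C57BL/6 animals 10 to 12 weeks old that had been fear conditioned one day earlier, with 3 tones that each ended in a foot shock. Infralimbic prefrontal cortex of 5 mice was pooled for each library, and 50000 sorted cells positive for Arc, an activity-induced protein, and for the neuronal protein NeuN were used. Peak lists of 2 EXT and 3 RC libraries were analysed. EXT replicate 3 (by title) and 6 RNA capture libraries were not analysed here.

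The lists did not reach equally far. Both EXT lists and that of RC replicate 3 ran over all chromosomes, with 80735, 123375 and 97961 peaks. Those of RC replicates 1 and 2 stopped within chromosome 1, at positions 166286196 and 37624379, and they serve below as libraries that the choice of regions did not use. Total tags were 65.0 M and 57.7 M in EXT replicates 1 and 2 and 69.1 M, 68.9 M and 73.8 M in RC replicates 1, 2 and 3. EXT replicate 2 thus had the longest of the complete lists and the fewest tags of all libraries. How long the other 2 RC lists would be if whole is not known. Of 9 pan-neuronal marker genes, 7, 8 and 6 had a peak of any width within 1 kb of an end in EXT replicate 1, EXT replicate 2 and RC replicate 3, as had 5, 6 and 5 of 6 excitatory and 3, 2 and 3 of 7 inhibitory genes, against 2, 4 and 2 of 7 oligodendrocyte-lineage genes, 2, 2 and 2 of 6 astrocyte genes, 2, 1 and 1 of 6 microglial genes, and 1, 2 and 2 of 6 endothelial genes. Over all autosomal protein-coding genes the shares with such a peak were 55.2%, 63.0% and 58.1%, above those of the inhibitory genes.

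The sequence below the middle of these peaks could be read for 45 regions whose centre and 25 flanking bases on each side fell in a RefSeq promoter window (build GRCm38.p6, 250 bases before to 50 after a start), and 34 of these stretches lay wholly before the start. The 8 shown are those of named protein-coding genes with the highest mean fold percentile among the 34, a choice made after their values were seen. They are printed to show that sites with the same peak shape differ in sequence. All are on the plus strand, and capitals mark the bases at least 75 bp from both bounds of the peak, which is where the cut sites of 150 bp windows ending at those bounds would fall.
Gjb6, chr14:57133647-57133709: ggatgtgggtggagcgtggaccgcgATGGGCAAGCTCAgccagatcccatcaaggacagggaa
Rasef, chr4:73790654-73790713: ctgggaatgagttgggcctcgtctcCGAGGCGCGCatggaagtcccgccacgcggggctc
Ano1, chr7:144738620-144738679: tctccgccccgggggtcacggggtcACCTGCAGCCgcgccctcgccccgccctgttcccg
Irf4, chr13:30749146-30749205: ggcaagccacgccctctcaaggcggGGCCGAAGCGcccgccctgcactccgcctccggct
Hmx3, chr7:131542776-131542836: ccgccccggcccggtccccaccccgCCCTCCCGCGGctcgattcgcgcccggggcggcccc
Tent5a, chr9:85327337-85327396: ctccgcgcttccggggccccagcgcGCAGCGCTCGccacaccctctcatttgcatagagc
Topaz1, chr9:122747052-122747111: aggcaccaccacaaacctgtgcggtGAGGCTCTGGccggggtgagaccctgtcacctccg
Gsg1l2, chr11:67774546-67774605: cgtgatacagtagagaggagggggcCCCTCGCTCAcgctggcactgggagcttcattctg

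The peak with its middle upstream of Gjb6, a gap junction protein (connexin 30), had pileups of 85 and 51 tags in EXT replicates 1 and 2, against 85 in RC replicate 3. The one with its middle upstream of Irf4, a transcription factor of lymphoid cells, had 68 and 48 tags in the EXT libraries, against 55 in RC replicate 3. That with its middle upstream of Ano1, a calcium-activated chloride channel, had 66 and 47 tags, against 59. Only the stretches printed lay wholly before the start, and the peaks themselves are wider. These upstream stretches were GC-rich, with 61.9% G or C at Gjb6, 80.0% at Ano1 and 88.5% at the homeobox gene Hmx3. Over all 45 stretches the median was 66.7%, against 53.3% for the middle 60 bases of 31396 autosomal promoter windows. Other narrow peaks read in the same way had medians of 71.7%, 64.3% and 70.0% in EXT replicate 1, EXT replicate 2 and RC replicate 3, and wider peaks 63.3%, 65.0% and 63.3%. The dinucleotide CG, which reads the same on both strands, stood among the central bases in 68.9% of the 45 stretches and in 28.4% of the promoter windows. It stood there in 77.1%, 59.6% and 72.1% of the other narrow peaks and in 54.4%, 55.6% and 51.7% of the wider ones. None of the 5235 regions overlapped any of 1005 annotated miRNA hairpins. The same count is not given for other narrow or wider peaks, so it sets the regions apart from neither.

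Of the 5235 regions, 5149 were 160 to 163 bp wide. Exactly 160 bp was the width of 3686 (70.4%), 990 were 161 bp, 363 were 162 bp and 110 were 163 bp. Only 21 were narrower than 160 bp, 20 of them exactly 150 bp, the length to which the authors extended each tag. A width of 160 bp is what 150 bp windows span when their centres lie 10 bp apart. The bounds of a peak mark where the pileup crosses the caller's cutoff, so a few tags further out would not show in them.

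Read the other way, 28.5% of all 160 bp peaks in EXT replicate 1 had the same bounds in the other complete lists, as had 22.8% in EXT replicate 2 and 19.5% in RC replicate 3. Peaks of 150 bp were also frequent, with 8932, 10361 and 9220 in the 3 lists, yet 0.224%, 0.193% and 0.217% of them had the same bounds in all. Above 300 bp the share was 0.124%, 0.0620% and 0.0965%. Without the limit on width, 5301 autosomal peaks had the same bounds in all 3 lists, and 66 of them were wider than 170 bp. Just inside the limit, 41 regions of 165 to 170 bp had median pileups of 66 and 46 tags in EXT replicates 1 and 2, against 74 in RC replicate 3. Just outside, 7 peaks of 171 to 180 bp had median pileups of 94 and 58, against 112.

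**Figure D1:**
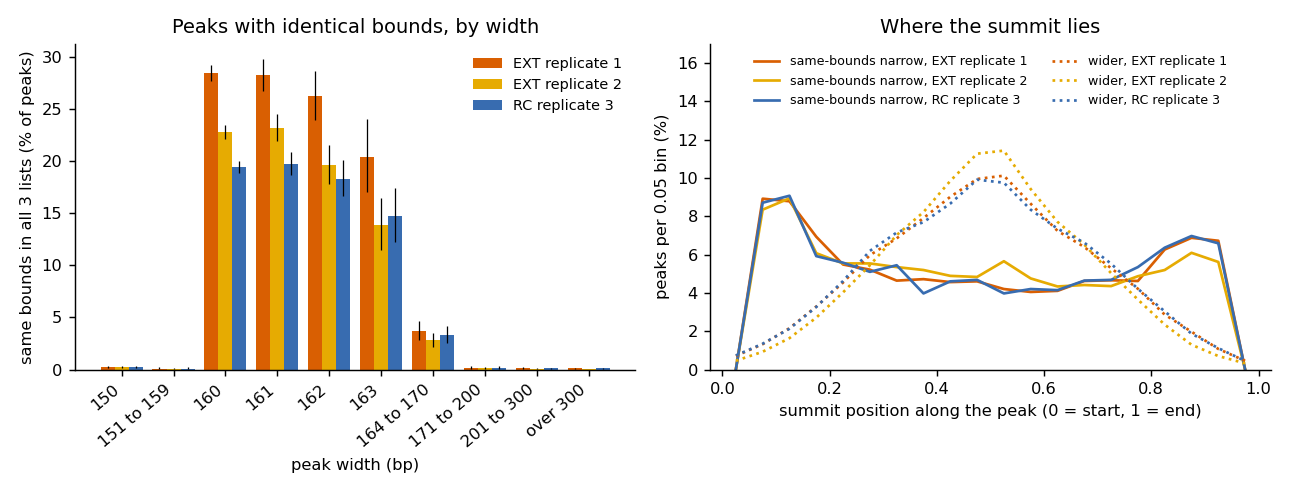
Left, share of the peaks of each width (bp) that had the same bounds in all 3 complete lists, with exact 95% binomial intervals. The bars reach 28.5% in EXT replicate 1 at 160 bp and are below 1% at 150 bp and above 170 bp. Right, position of the summit along the peak (0 is the start, 1 the end) as the percent of peaks per 0.05 bin; solid lines are the same-bounds narrow peaks and dotted lines the wider peaks, which pile up at the middle.

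The summit, the position of highest pileup, moved between libraries although the bounds did not. In the 3686 regions of 160 bp it lay 10 to 149 bases from the start in all 3 lists, with quartiles of 31 and 120 bases in EXT replicate 1, 33 and 115 in EXT replicate 2 and 33 and 120 in RC replicate 3. All other 160 bp peaks, 9267, 12483 and 15264 in the same lists, had their summits in the same range. Only 1.18% of the 5235 regions had the same summit in both EXT lists, 1.32% in EXT replicate 1 and RC replicate 3, and 1.47% in EXT replicate 2 and RC replicate 3. The median distance between the summits of a region in a pair of lists was 40 to 42 bases. The middle 50% of the peak's length held 45.4%, 49.5% and 45.5% of the summits in EXT replicate 1, EXT replicate 2 and RC replicate 3, against 51.7%, 53.2% and 49.4% in other narrow peaks and 77.5%, 82.0% and 77.3% in wider peaks. Summits away from the middle were thus also seen in other narrow peaks. The summit plot shows the same-bounds peaks higher toward both ends than in between, where wider peaks have their maximum.

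At the median, the same-bounds peaks carried more tags than other narrow peaks in EXT replicate 1 and RC replicate 3, and only slightly more in EXT replicate 2. Their median pileup was 55 tags (quartiles 43 and 70) in EXT replicate 1, 36 (30 and 46) in EXT replicate 2 and 63 (49 and 79) in RC replicate 3. Other narrow peaks had medians of 31, 32 and 38, and wider peaks 30, 35 and 34. The upper quartile of other narrow peaks, 49 in EXT replicate 2, was above that of the regions there. In EXT replicate 1 and RC replicate 3 it was 42 and 49, below that of the regions. Fold enrichment, the pileup over the local background of the same library, had medians of 7.89, 5.87 and 8.09 in the same-bounds peaks, 4.18, 4.44 and 4.56 in other narrow peaks and 3.40, 4.20 and 3.37 in wider ones. Among the 10% of peaks with the highest fold in the whole list stood 56.7% of the regions in EXT replicate 1, 9.72% in EXT replicate 2 and 56.1% in RC replicate 3. For other narrow peaks these shares were 8.86%, 13.6% and 8.91%, and for wider peaks 5.06%, 8.44% and 5.92%. In EXT replicate 2 the share of the regions was thus below that of other narrow peaks. The lowest pileups were 19, 20 and 22 tags and the highest 788, 1483 and 1193.

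The highest region by fold, a 162 bp peak inside the lncRNA gene Gm33557 (chr15:41276901-41277062), had pileups of 788 and 1483 tags in EXT replicates 1 and 2, against 1193 in RC replicate 3. Its folds were 52.8 and 59.8 in the EXT lists, against 54.6. Another, between genes at chr1:112457507-112457670 and 40.6 kb from Gm32810, had 476 and 987 tags, against 1104. EXT replicate 1 was the lowest of the 3 libraries at both sites. A peak at an end of Bmp7, a bone morphogenetic protein that signals in development, at chr2:172940261-172940421 had 350 and 588 tags, against 581. Of the 10 regions with the highest mean fold percentile, Bmp7's was the only one at a gene end, 2 lay inside lncRNA genes and the other 7 lay outside genes. Those 7 were 2.31 to 72.1 kb from the nearest gene.

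At ends of protein-coding genes, the 10 regions with the highest mean fold percentile were those of Bmp7, Hoxc10, Tbx5, Ros1, Erbb3, Zfp341, En1, Epcam, Foxf1 and Ccdc102a. Hoxc10, a homeobox gene of the posterior body, had 178 and 287 tags in EXT replicates 1 and 2, against 182 in RC replicate 3 (chr15:102966684-102966843). Tbx5, a T-box factor of heart and forelimb, had 74 and 264 tags, against 131. In both, EXT replicate 2 was highest. Ros1, a receptor tyrosine kinase, had 124 and 71 tags, against 189. Erbb3, a neuregulin receptor, had 107 and 80, against 146, and the zinc finger gene Zfp341 had 166 and 107, against 225. En1, a homeobox gene of midbrain and hindbrain, had 93 and 60 tags, against 103. Epcam, an epithelial adhesion protein, had 87 and 53, against 97. Foxf1, a forkhead factor of mesenchyme, had 135 and 67, against 167, and Ccdc102a had 139 and 81, against 188. From Ros1 to Ccdc102a EXT replicate 2 was lowest and RC replicate 3 highest at all 7 sites.

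The lowest folds were at peaks with a high local background or few tags. A 150 bp peak 2.47 kb from Reep5 on chromosome 18 had 28 and 32 tags in EXT replicates 1 and 2, against 28 in RC replicate 3. One inside Msh4, a meiotic recombination gene, had 25 and 23 tags, against 26. At an end of Adgrb1, an adhesion G protein-coupled receptor, 96 and 81 tags, against 117, gave folds of 3.33 and 2.47, against 3.24. Inside Ntrk2, which encodes the BDNF receptor TrkB, 47 and 64 tags, against 61, gave folds of 2.48 and 4.44, against 3.21. At an end of Zfp512b 64 and 67 tags, against 77, gave folds of 3.35 and 2.92, against 3.36. Adgrb1 and Zfp512b thus exceeded the median pileup of the regions in every list and were among their lowest folds.

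**Figure D2:**
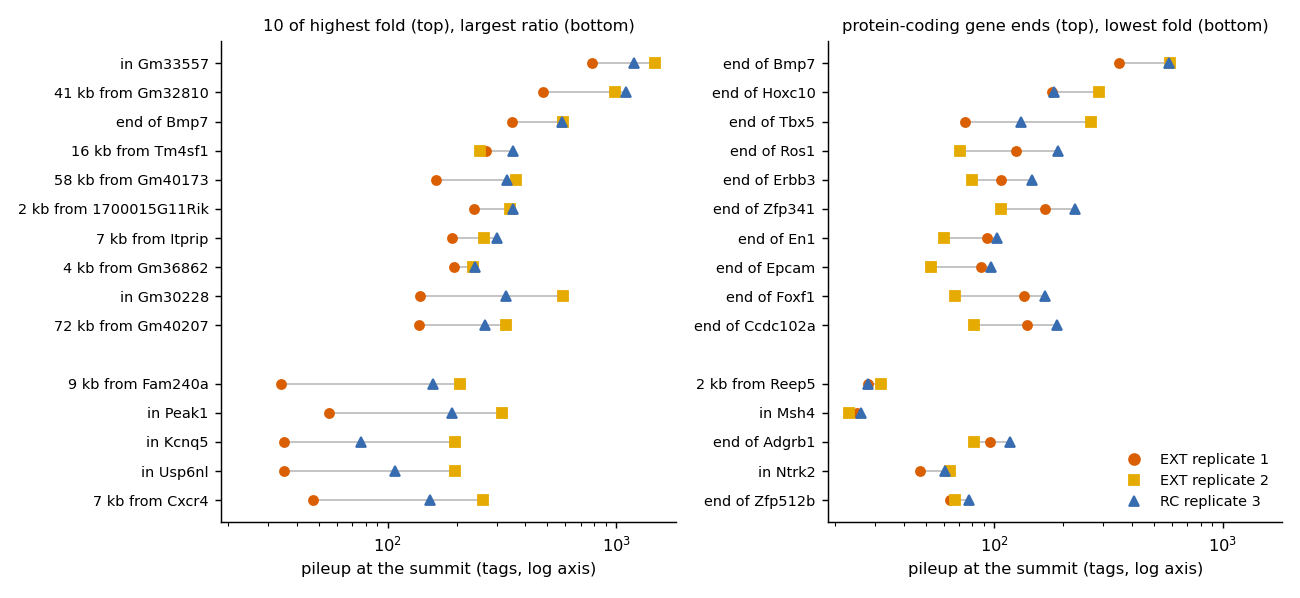
Pileup at the summit (tags, log axis) of named same-bounds peaks in EXT replicates 1 and 2 and RC replicate 3, each row 1 peak and its gene or nearest gene. The peak in Gm33557 has the most tags in all 3 libraries, and the 5 with the largest ratio between libraries (left, bottom) all have EXT replicate 1 lowest and EXT replicate 2 highest.

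In 62.7% of the regions the highest of the 3 pileups was at most 2 times the lowest. It was 1.86 times the lowest at the median region (quartiles 1.56 and 2.23), and 33 regions exceeded a ratio of 4. The largest ratio was 6.09, at a peak 9.40 kb from Fam240a (chr9:110926296-110926455) with 34 and 207 tags in EXT replicates 1 and 2, against 158 in RC replicate 3. Inside Kcnq5, a channel subunit of the neuronal M-current, 35 and 197 tags stood against 76. The peaks inside Peak1, a pseudokinase, with 55 and 315 tags, against 191, inside Usp6nl, a Rab GTPase-activating protein, with 35 and 196, against 107, and 6.97 kb from the chemokine receptor gene Cxcr4, with 47 and 260, against 153, were ordered alike. Over the 5235 regions the rank correlation of pileups was 0.362 between the EXT libraries, 0.686 between EXT replicate 1 and RC replicate 3, and 0.479 between EXT replicate 2 and RC replicate 3. These points share local background and sequence, so the correlations describe the lists only.

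Between the groups, the difference rested mainly on 1 EXT library. The log2 pileup difference from RC replicate 3 (EXT minus RC) was taken region by region. Its median was -0.19 for EXT replicate 1 and -0.75 for EXT replicate 2. For the mean of both EXT libraries the median was -0.47, with an SD of 0.40 between those libraries (n = 2). The log2 ratio of total tags was -0.18 and -0.36. Per 10 M tags, the medians were -0.0017 and -0.40. EXT replicate 2 had the lowest pileup in 85.8% of the regions and RC replicate 3 the highest in 61.7%. In fold enrichment the medians were -0.026 and -0.45. With 1 RC library that reaches the whole genome there was no replicate check, and no p was computed.

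Wider peaks went the other way in EXT replicate 2. Over 19381 wider peaks that overlapped in all 3 lists by at least 50% of the peak of RC replicate 3 and of the other, the median log2 pileup against RC replicate 3 was -0.33 in EXT replicate 1 and 0.56 in EXT replicate 2. Per 10 M tags it was -0.15 and 0.92. EXT replicate 2 was higher than RC replicate 3 at 8.29% of the same-bounds narrow peaks and at 83.8% of the wider ones. In EXT replicate 1 those shares were 29.7% and 17.1%. The regions had to have equal bounds in all 3 lists and the wider peaks did not, and the part of that choice in the contrast was not tested.

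**Figure D3:**
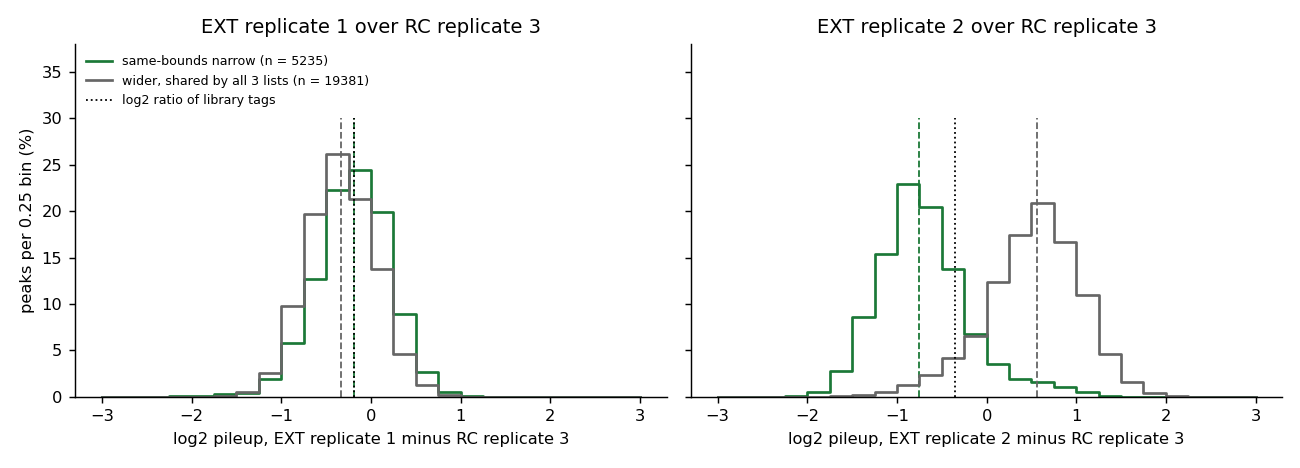
Distribution (percent of peaks per 0.25 bin) of the log2 pileup of EXT replicate 1 (left) and EXT replicate 2 (right) minus RC replicate 3, for the 5235 same-bounds narrow peaks (green) and 19381 wider peaks shared by the 3 lists (grey). Dashed lines are medians and the dotted line is the log2 ratio of library tags; in EXT replicate 2 the medians are -0.75 and 0.56, on either side of it.

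The truncated RC lists, which the choice of regions did not use, held many of the same peaks. Of 298 regions that the list of RC replicate 1 reached, 109 had the same bounds there (36.6%, exact 95% binomial interval 31.1 to 42.3%), and of 65 that the list of RC replicate 2 reached, 49 did (75.4%, 63.1 to 85.2%). Of all narrow peaks of the 3 complete lists over the same stretches, 19.1% and 24.2% had the same bounds in RC replicates 1 and 2. By any overlap, 54.4% and 92.3% of the regions were met by a peak in RC replicates 1 and 2. In RC replicate 1 overlap met 33.2%, 54.7% and 52.1% of other narrow peaks of EXT replicate 1, EXT replicate 2 and RC replicate 3. It met 74.9%, 76.5% and 75.9% of their wider peaks. In RC replicate 2 these shares were 43.1%, 56.4% and 57.1% for other narrow and 72.9%, 77.3% and 71.4% for wider peaks. Other narrow peaks were met with the same bounds in RC replicate 1 in 4.36% of cases from EXT replicate 1, 34.7% from EXT replicate 2 and 25.7% from RC replicate 3. For wider peaks these shares were 0.241%, 0.372% and 0.321%. In RC replicate 2 the same-bounds shares were 12.4%, 35.9% and 30.8% for other narrow peaks and 0.217%, 0.515% and 0.617% for wider ones. The intervals treat regions as independent and cover counting error only.

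Which complete lists shared a narrow peak went with how often the truncated lists held it. Narrow peaks with the same bounds in EXT replicate 2 and RC replicate 3 but not in EXT replicate 1 were found in RC replicate 1 in 88.9% of 458 cases (85.6 to 91.6%) and in RC replicate 2 in 70 of 70. Those of EXT replicate 1 and RC replicate 3 without EXT replicate 2 were found in 8.49% of 530 and 29% of 100. Of narrow peaks listed in EXT replicate 1 alone, 0.901% of 888 and 1.69% of 177 were found. Those in EXT replicate 2 alone reached 17.3% of 1427 and 16.5% of 236, and those in RC replicate 3 alone 5.36% of 970 and 4.52% of 177.

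Sharing did not follow the EXT and RC labels. Over chromosomes 1 to 19, the EXT libraries had 5777 narrow peaks with the same bounds in common, of which the 5235 regions were 90.6%. EXT replicate 1 shared 14191 with RC replicate 3, and EXT replicate 2 shared 13173 with it. On the part of chromosome 1 that all 5 lists reached, RC replicate 2 shared 161 narrow peaks with EXT replicate 2, 148 with RC replicate 1 and 156 with RC replicate 3, and EXT replicate 1 shared 71 with EXT replicate 2, 37 with RC replicate 1 and 84 with RC replicate 2. The 161 were 42.7% of the narrow peaks of EXT replicate 2 and 42.6% of those of RC replicate 2 there. The 37 were 10.6% of those of EXT replicate 1 and 11.5% of those of RC replicate 1. The lists do not show why some pairs shared more, and no cause was tested.

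**Figure D4:**
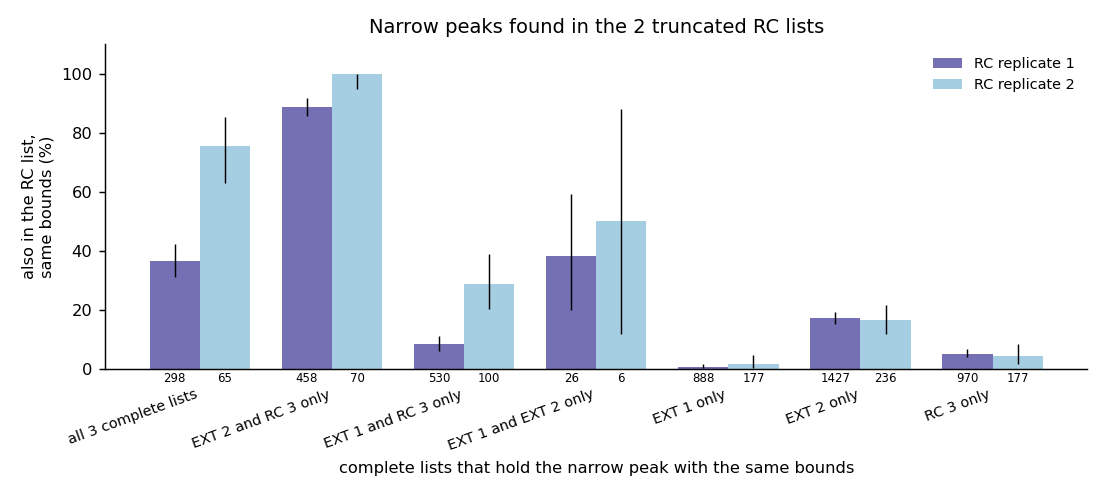
Share of narrow peaks, grouped by which complete lists held them with the same bounds, that RC replicates 1 and 2 also listed with those bounds; bars are percent with exact 95% binomial intervals and the number under each bar is the peaks within that list's reach. The regions described here (left) reach 36.6% and 75.4%, and peaks of EXT replicate 2 and RC replicate 3 only reach 88.9% and 100%.

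A comparison of the groups over all 5 libraries was possible for 23 regions that every list held. Their median pileups were 64 and 51 tags in EXT replicates 1 and 2, against 48, 64 and 65 in RC replicates 1, 2 and 3, so the groups overlapped. The median log2 pileup averaged 5.84 ± 0.23 in EXT libraries (SD, n = 2) and 5.87 ± 0.25 in RC libraries (SD, n = 3), a difference of -0.033. A two-sided exact permutation test over libraries gave p = 0.9, where 0.1 is the smallest p that 2 against 3 libraries allow. Replicates are pools of animals, so the test rests on the spread between pools. The sign turned to 0.13 without EXT replicate 2, to 0.033 without RC replicate 2 and to 0.044 without RC replicate 3. Per 10 M tags the difference was 0.17 (exact p = 0.5).

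Most regions lay more than 10 kb from the nearest other region. Whether the same number of random sites would be spaced alike was not tested. The median distance from 1 to the nearest other was 130.7 kb (95% interval of the median 124.9 to 134.7 kb), with a smallest of 189 bp and a largest of 3.65 Mb. Within 1 kb of another were 38 of them (0.726%), and 333 (6.36%) within 10 kb. Peaks of any width came less often beside the regions than beside other peaks. Another peak of the same list lay within 1 kb of 7.34%, 11.8% and 8.56% of the regions in EXT replicate 1, EXT replicate 2 and RC replicate 3, against 19.2%, 22.3% and 19.5% of all autosomal peaks. For other narrow peaks the shares were 15.2%, 17.1% and 15.0%, and for wider peaks 22.7%, 25% and 23.2%.

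Of 163 groups of regions spaced by 10 kb or less, 5 had 3 or more members. The largest held 5 in a stretch of 19618 bp inside Hsd17b4 on chromosome 18, the gene of a peroxisomal enzyme of fatty acid oxidation. Their pileups were 33, 97, 51, 36 and 51 tags in EXT replicate 1 and 38, 44, 26, 27 and 40 in EXT replicate 2, against 51, 74, 54, 28 and 75 in RC replicate 3. Another held 3 in a stretch of 13480 bp inside Gabpb1, a subunit of the GA-binding transcription factor. These had 90, 61 and 34 tags and 45, 42 and 25 tags in the EXT libraries, against 67, 91 and 49. At Hcrtr1, an orexin receptor gene, and the neighbouring Gm40259 on chromosome 4, 3 regions within 9825 bp had 68, 48 and 57 tags and 40, 35 and 46 tags, against 62, 60 and 74. EXT replicate 2 was lowest in 10 of these 11 peaks, and EXT replicate 1 was highest in 4.

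Gene ends held a smaller share of the regions than of wider peaks in all 3 lists, and than of other narrow peaks in EXT replicate 1 and RC replicate 3. Of the 5235, 473 (9.04%, 8.27 to 9.84%) overlapped the 1 kb either side of a gene's lower or upper end, against 20.6%, 16.9% and 18.5% of all autosomal peaks in EXT replicate 1, EXT replicate 2 and RC replicate 3. Other narrow peaks were at 13.2%, 9.89% and 11.5%, and wider peaks at 25.9%, 20.3% and 23.8%. These windows take up 4.91% of the bases. Any overlap of 1 bp or more counted, so a wider peak could meet a window more readily than a narrow one. By summit alone, 8.48 to 8.54% of the regions were at a gene end, and wider peaks were not counted in that way. The interval of the regions overlapped that of the other narrow peaks of EXT replicate 2, 9.58 to 10.2%, and lay below those of the other lists. Inside genes, away from their ends, lay 2823 (53.9%), against 54%, 56.2% and 55.6% of all autosomal peaks and 45% of the bases. Outside genes lay 1939 (37.0%), against 30.1%, 32.5% and 32.4% of other narrow peaks, 21.6%, 24.0% and 20.8% of wider peaks and 50.1% of the bases.

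By annotated transcription starts the regions were again nearer to the share of bases than wider peaks were. Off chromosome 18, for which no starts were at hand, 240 of 4999 regions (4.80%, 4.22 to 5.43%) were within 1 kb of a start, against 15.7%, 11.9% and 13.5% of all autosomal peaks in EXT replicate 1, EXT replicate 2 and RC replicate 3. Other narrow peaks were at 8.56%, 5.44% and 7.07%, wider ones at 20.7%, 15.0% and 18.3%, and the bases at 2.30%. The median distance to a start was 26.9 kb for the regions, 24.3 to 26.6 kb for other narrow peaks and 18.1 to 21.6 kb for wider ones.

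**Figure D5:**
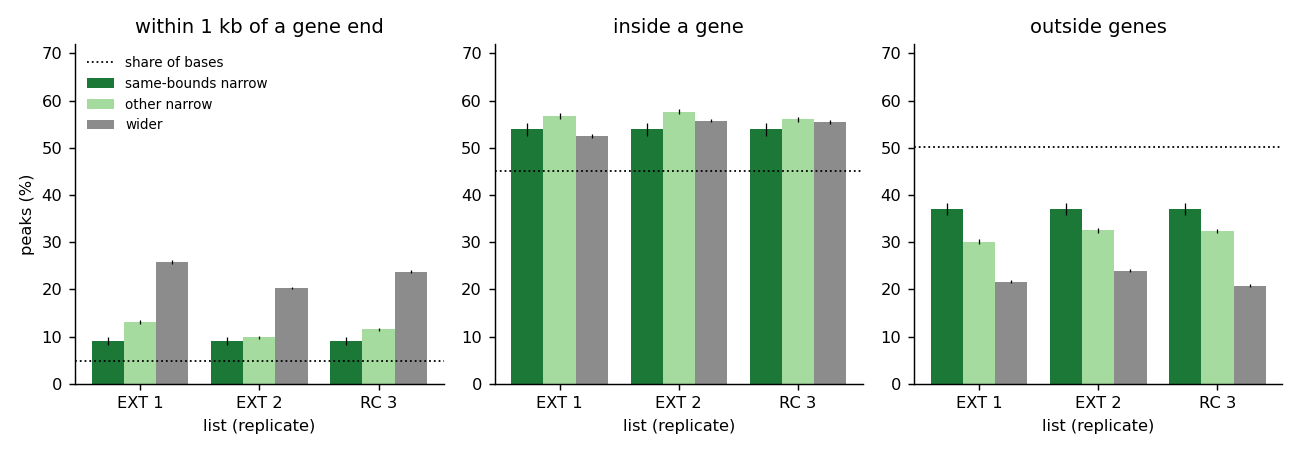
Percent of peaks within 1 kb of a gene end (left), inside a gene (middle) and outside genes (right), in each complete list, for same-bounds narrow, other narrow and wider peaks, with exact 95% binomial intervals and the share of bases as a dotted line. The same-bounds peaks are at 9.04%, 53.9% and 37.0%, and wider peaks are at 20.3% or more at gene ends.

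Of 20665 autosomal protein-coding genes 344 (1.66%) had such a peak at an end, and of 12408 lncRNA genes 172 (1.39%). Among 24 immediate early genes only Dusp1, a phosphatase of MAP kinases, had one, with 114 and 92 tags in EXT replicates 1 and 2, against 117 in RC replicate 3. A peak of any width stood at an end of 18, 22 and 22 of the 24 in EXT replicate 1, EXT replicate 2 and RC replicate 3, beside 55.2%, 63.0% and 58.1% of all protein-coding genes. None of the 7 genes of 14-3-3 adaptor proteins and none of 23 synaptic plasticity genes had a same-bounds peak at an end, while 7, 6 and 7 of the 14-3-3 genes and 18, 19 and 18 of the plasticity genes had another peak there. Of 22 ribosomal and housekeeping genes 1 had such a peak, Polr2a, the largest subunit of RNA polymerase II, with 67 and 39 tags, against 82.

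Cell type marker genes were met at an end in 2 cases. Slc17a6, the vesicular glutamate transporter VGLUT2, had 36 and 28 tags in EXT replicates 1 and 2, against 37 in RC replicate 3. Cldn5, a tight junction protein of endothelium, had 72 and 45 tags, against 83. These were 1 of 6 excitatory and 1 of 6 endothelial genes, and 0 of 9 pan-neuronal, 0 of 7 inhibitory, 0 of 7 oligodendrocyte-lineage, 0 of 6 astrocyte and 0 of 6 microglial genes had one. Lists of 6 to 24 genes hold few gene ends, so shares near 1.66% cannot be told from 0 in them.

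Inside their spans, 10.9% of protein-coding genes held at least 1 region, and together they held 2.77 regions per Mb. Of the plasticity genes 6 of 23 did, at 0.878 per Mb of their span. Dlg2, a postsynaptic scaffold, held 3, with 46, 39 and 78 tags in EXT replicate 1 and 31, 31 and 49 in EXT replicate 2, against 52, 47 and 62 in RC replicate 3. Gria4, an AMPA receptor subunit, held 2, with 24 and 48 tags and 72 and 38 tags in the EXT libraries, against 41 and 63. Camk2b, a subunit of calcium/calmodulin kinase, had 96 and 82 tags, against 105, and the scaffold gene Shank2 58 and 47, against 70. Nrxn3 and Ntrk2 were the other genes of that list.

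Markers with a region inside their span, beside Slc17a6 and Cldn5, were neuronal and glial genes. Gad1, the GABA-synthesising enzyme of inhibitory neurons, had the most tags, 153 and 81 in EXT replicates 1 and 2, against 217 in RC replicate 3. Lhx6, a factor of interneuron development, had 48 and 27, against 64. The pan-neuronal RNA-binding genes Elavl3, with 80 and 49 tags, against 68, and Elavl4, with 54 and 55, against 48, each held 1, and Celf4 held 2. Slc1a3, the astrocyte glutamate transporter, had 61 and 48, against 56. The microglial receptor gene P2ry12 had 43 and 32, against 44, in a stretch it shares with Med12l. Tmem119, another microglial gene, had 42 and 38, against 91. No oligodendrocyte-lineage gene of the 7 held one. By list, 3 of 9 pan-neuronal, 2 of 7 inhibitory, 1 of 6 astrocyte and 2 of 6 microglial genes did, beside 10.9% of all protein-coding genes. Per Mb of span these lists held 2.23, 11.7, 3.31 and 14.6 regions, against 2.77 over all protein-coding genes. The lists are small, and these differences were not tested.

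Density differed between chromosomes. The autosomes held 2.18 regions per Mb between the first and the last peak of a chromosome, from 1.83 on chromosome 3 to 2.81 on chromosome 19, with 2.79 on chromosome 11 and 2.69 on chromosome 18. Across the 19 chromosomes the rank correlation of this density with genes per Mb was 0.628, and with other narrow peaks per Mb it was 0.679, 0.782 and 0.844 in EXT replicate 1, EXT replicate 2 and RC replicate 3. Chromosomes 1, 3, 12 and 18 alike had 10.7 genes per Mb. On chromosomes 1, 3 and 12, 16.8%, 17.7% and 17.8% of narrow peaks in EXT replicate 1 were same-bounds. Chromosome 18 had the largest such share of all, 22.6% and 17.2% in EXT replicates 1 and 2, against 16.1% in RC replicate 3. Chromosome 19 came next, with 18.6% and 15.2%, against 14.6%, and the remaining chromosomes had 15.1 to 17.8% in EXT replicate 1.

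No column of the lists counts distinct molecules, so whether a pileup stands for many cuts or for copies of few was not tested.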

How the data were processed

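ATAC-seq peak lists of 2 EXT and 3 RC libraries were used, grouped by sample title. The list taken as EXT replicate 2 bears a different number in its file name, and replicate numbers here are those of the titles. Per the file headers, MACS 2.2.4 was run on every library alone without a control, at a q-value cutoff of 0.05, with a tag shift of -75 bp and an extension of 150 bp. Duplicate tags were all kept, and mates were not used as pairs. Per the submitters' processing notes the build was mm10 and the tools included BWA 0.7.17 and HISAT2 2.1.0 (aligners), cutadapt 1.17, bedtools 2.27.1, SAMtools 1.8 and MACS2 2.2.4. The role of each aligner was not given in the sources used here. The deposited pileup is a coverage signal in whole tags at the summit. The deposited fold enrichment is its ratio to the background taken for that peak. The −log10 q value of each peak, as deposited, served in an alternative, and the deposited −log10 p value was not used. These values are the authors' own for each peak, and duplicates kept can raise them. Starts are 1-based.

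The lists of RC replicates 1 and 2 ended in an incomplete line, which was dropped (1 each), and were compared only within their reach. Peaks were matched by identical bounds. Gene context used the RefSeq table of GRCm38.p6 with 21887 protein-coding and 12727 lncRNA genes, and starts and sequences its promoter table, where chromosome 18 has no entry. Intervals are exact Clopper-Pearson 95% and cover counting error only; library totals were 57.7 to 73.8 M tags. Groups were compared by exact permutation over libraries. Computation used Python 3.11.15, NumPy 2.4.6, pandas 2.3.3 and SciPy 1.17.1, and the matching was tested on simulated peaks. The regions, gene lists (128 listed symbols, all matched) and rules were chosen with earlier results of these data known. Named were the 10 regions of highest and 5 of lowest mean fold percentile, the 5 of largest pileup ratio, the 10 highest at protein-coding gene ends, the 3 densest groups, and genes of the lists. Alternatives were other widths, a tolerance of 10 bp, −log10 q of at least 5, other windows, other scalings and leaving out each library.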

Additional observations from a re-analysis of the deposited data

How the results depend on the processing

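Of the 72 alternatives to 9 results, 40 stayed near the reported value: within 1.5 times for the number of regions, within the 95% interval for shares and the distance, and within 1 SD of the EXT libraries, with the same sign, for the log2 differences from RC replicate 3. The difference over 5 libraries was judged by its sign alone. The number of regions was 5235, 20 with only peaks of exactly 150 bp, 8125 with bounds matched within 10 bp, and 5777 to 14191 when a library was left out. The share at a gene end was 10.0% of the 150 bp peaks, 9.86% within 10 bp, 8.93 to 10.2% without a library, 5.56% with windows of 500 bp and 14.7% with 2 kb. The share inside a gene was 55.6% within 10 bp, 56.5% with 500 bp and 49.8% with 2 kb. The median distance to the nearest other region was 16985 kb for 150 bp peaks, 190.1 kb at 160 bp or less, 76.4 kb within 10 bp, and 46.1 to 114.3 kb without a library, where fewer or more regions were spaced over the same chromosomes. The share found in RC replicate 1 was 47.3% within 10 bp, 54.4% by any overlap, 54.0% by 50% coverage and 0% of the 1 peak of 150 bp; in RC replicate 2 it was 86.2%, 92.3% and 92.3%, and no 150 bp region was in its reach.

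Within that SD the median log2 pileup difference (EXT minus RC), -0.47, was -0.13 for 150 bp peaks and -0.19 per 10 M tags, and the fold difference, -0.23, was -0.026 without EXT replicate 2. The fold difference turned to 0.033 for 150 bp peaks, and the cause was not tested. The difference over 5 libraries, -0.033, was 0.17 per 10 M tags, 0.21 by fold enrichment, and -0.20 to 0.13 when a library was left out. Its exact p was 0.2 to 1 over these alternatives, and designs this small cannot pass 0.05. With a replicate block (EXT minus RC within numbers 1 and 2) it was 0.044. Deviations of same-numbered libraries correlated at -0.82 and 0.84 over 23 regions. With 2 EXT libraries and opposite signs, these values cannot show whether the numbers pair the samples. The truncated lists reached 298 and 65 regions, which limits the precision of the shares found there.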

Other observations

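Outside chromosomes 1 to 19, the 3 complete lists shared 199 narrow peaks with identical bounds on chromosomes X and Y, which were left out of all counts above.

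Large families of genes that cortical neurons mostly keep silent also included genes with a region at an end. These were 5 of 1104 olfactory receptor genes (0.453%), 1 of 354 vomeronasal receptor genes (0.282%), 3 of 112 keratin and keratin-associated genes (2.68%) and 1 of 42 beta-defensin genes (2.38%), beside 1.66% of all autosomal protein-coding genes. At Krt13, an epithelial keratin, 2 regions had 41 and 39 tags in EXT replicate 1 and 30 and 30 in EXT replicate 2, against 33 and 49 in RC replicate 3. Krt18 had 32 and 24 tags in EXT replicates 1 and 2, against 32 in RC replicate 3, and Defb13 had 37 and 26, against 44. Peaks of any width were at ends of 28, 42 and 35 of the olfactory receptor genes in EXT replicate 1, EXT replicate 2 and RC replicate 3 (2.54%, 3.8% and 3.17%), beside 55.2%, 63.0% and 58.1% of all protein-coding genes.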
